A study of Mus musculus with 5 samples.

Results

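The Hox genes of mouse dorsal skin were described in single-cell RNA sequencing of whole skin. They were taken as every gene whose symbol reads Hox, a letter from a to d and a number, which gave 39 of the 28001 features of the unsorted libraries. Hoxa held 11 members, Hoxb 10, Hoxc 9 and Hoxd 9. In GRCm38, Hoxa spans chr6:52155590-52260880 on the minus strand. Hoxb spans chr11:96194316-96368256, Hoxc chr15:102921103-103036852 and Hoxd chr2:74668310-74765142, with members of these 3 clusters on the plus strand.

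Hox genes encode homeodomain transcription factors that lie in 4 clusters, in the order in which they are used along the body axis. Low-numbered members (anterior groups) act towards the head and high-numbered members (posterior groups) towards the tail and the limb ends. Adult cells keep part of this pattern, and dermal fibroblasts from different body sites are known to carry different Hox combinations. In skin, Hoxc genes are also known from the hair follicle, where Hoxc13 acts in hair shaft keratinocytes and Hoxc8 in the dermal papilla. The papilla is the group of mesenchymal cells at the follicle base that signals to the hair epithelium.

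The 4 unsorted libraries came from whole dorsal skin of female mice at postnatal day 46. The genotype written Lepr-Cre;mTmG;Smo+/- (mutant) gave 2 of them and Lepr-Cre;mTmG (control) gave 2. A further library held GFP-positive cells sorted at postnatal day 50 from Lepr-Cre;mTmG females. All mice carried Lepr-Cre, which acts where the leptin receptor gene is or was active, and mTmG, a reporter that turns from tomato to GFP after recombination. Smo encodes Smoothened, the transducer of Hedgehog signals. How Smo was altered is not given, and the control is written both with and without Smo. Libraries of the same genotype are described as technical replicates in the protocol. No p-value below therefore measures the spread between animals. Tests of genotype measure the spread between preparations. Tests between lineages, over all 4 libraries, also take in any genotype difference that is unequal between the lineages.

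Cells were assigned to 8 lineages by counting detected marker genes, with no Hox gene among the markers. The papilla gate held 2531 cells, the fibroblast gate 3835, keratinocyte 12429, endothelial 1275, Schwann cell 1163, melanocyte 103, immune 5900 and mural (pericyte and smooth muscle) 352. Between 8102 and 8673 cells per unsorted library passed the filters, with median depths of 8455 and 8323 UMIs per cell in mutant and 9487.5 and 9756 in control libraries. A UMI is a tagged RNA molecule. Pairs of unsorted libraries shared 24 to 46 cell barcodes. In every lineage the summed level of its own marker list was the highest of the 8 lineage lists. Papilla cells stood least apart, with 3570 to 4195 CPM of papilla markers, where CPM are a gene's UMIs scaled to 1e6 UMIs of the same cells, and 1692 to 2206 CPM of fibroblast markers. Of the papilla cells, 23.1% had just the minimum number of markers, against 25.6% of mural cells, 24.3% of melanocytes and 14.1% of fibroblasts.

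Smo itself had 43.3 and 43.7 CPM in mutant papilla cells, against 44.5 and 40.1 CPM in control papilla cells. In fibroblasts it had 50.9 and 44.0 CPM in mutant libraries, against 41.4 and 45.9 CPM in control libraries. The mutant and control values of Smo overlapped in both lineages, so its RNA, read at the 3′ end, did not separate the genotypes.

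The promoters of 7 members on which the lineage differences turn are shown first, as the 250 bases before the annotated start (RefSeq, GRCm38.p6, read on the gene's strand). The table held promoters for 22 of the 39 members, 24 starts in all. Hoxd10 (chr2:74691641-74691890, plus strand), Hoxd9 (chr2:74697513-74697762, plus), Hoxd8 (chr2:74704365-74704614, plus) and Hoxb4 (chr11:96318017-96318266, plus) lead the endothelial pattern. Hoxa5 (chr6:52204588-52204837, minus) and Hoxa7 (chr6:52218574-52218823, minus) are shared by several lineages, and Hoxc4 (chr15:103034145-103034394, plus) was not detected in endothelial cells. Capitals mark matches, on either strand, to TGATTNAT (a Hox site with a Pbx partner), TAATTA (a homeodomain core), CCAAT or TATAAA.
Hoxd10: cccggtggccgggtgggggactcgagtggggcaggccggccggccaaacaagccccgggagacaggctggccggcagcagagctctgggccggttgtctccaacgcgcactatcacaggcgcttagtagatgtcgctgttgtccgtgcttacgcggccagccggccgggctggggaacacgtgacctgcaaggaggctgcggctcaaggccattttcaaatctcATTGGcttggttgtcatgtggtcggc
Hoxd9: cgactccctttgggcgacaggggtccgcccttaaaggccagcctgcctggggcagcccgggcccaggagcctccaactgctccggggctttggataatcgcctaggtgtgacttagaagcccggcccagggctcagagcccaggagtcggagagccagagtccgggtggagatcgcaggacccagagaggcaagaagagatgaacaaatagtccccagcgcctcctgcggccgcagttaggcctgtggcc
Hoxd8: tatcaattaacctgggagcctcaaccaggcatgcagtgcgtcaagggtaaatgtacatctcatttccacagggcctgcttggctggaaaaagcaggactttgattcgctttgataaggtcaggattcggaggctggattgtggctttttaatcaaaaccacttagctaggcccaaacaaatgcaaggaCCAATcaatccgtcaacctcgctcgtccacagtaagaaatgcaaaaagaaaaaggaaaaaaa
Hoxb4: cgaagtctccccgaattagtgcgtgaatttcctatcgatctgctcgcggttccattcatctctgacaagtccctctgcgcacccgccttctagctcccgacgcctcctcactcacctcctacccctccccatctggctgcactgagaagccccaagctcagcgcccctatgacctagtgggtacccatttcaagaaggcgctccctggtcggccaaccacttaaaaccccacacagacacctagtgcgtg
Hoxa5: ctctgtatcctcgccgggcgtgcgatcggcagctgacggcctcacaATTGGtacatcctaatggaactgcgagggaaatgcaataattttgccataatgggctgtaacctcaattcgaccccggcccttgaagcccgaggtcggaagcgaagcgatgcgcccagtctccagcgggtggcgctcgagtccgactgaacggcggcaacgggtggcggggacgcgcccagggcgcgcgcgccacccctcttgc
Hoxa7: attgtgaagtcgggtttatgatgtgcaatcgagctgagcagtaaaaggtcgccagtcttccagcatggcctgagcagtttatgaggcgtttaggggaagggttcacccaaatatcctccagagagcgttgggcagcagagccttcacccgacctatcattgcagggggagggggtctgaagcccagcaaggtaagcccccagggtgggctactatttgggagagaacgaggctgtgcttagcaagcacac
Hoxc4: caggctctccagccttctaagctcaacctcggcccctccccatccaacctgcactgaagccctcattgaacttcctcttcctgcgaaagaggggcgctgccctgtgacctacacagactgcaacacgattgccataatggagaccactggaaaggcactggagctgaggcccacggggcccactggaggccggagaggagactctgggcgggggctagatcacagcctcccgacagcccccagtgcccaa

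Of the 24 Hox promoters, 14 held CCAAT, against 33.8% of 32851 promoters in the whole table. TATAAA was found in 4 of the 24 (12.4% of all), TAATTA in 2 (4.84% of all) and TGATTNAT in 2 (2.82% of all). The median number of CpG pairs per promoter was 12.5 for Hox genes and 6 for all promoters. Among the 7 shown, Hoxd10 had 20 CpG pairs and Hoxa5 had 28, while Hoxd8 had 6. The 4 promoters of the endothelial group ranged from 6 to 20 CpG pairs, and the 7 held none of the other 3 motifs. A match is a description of letters and not a binding site.

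The 39 members gave 34923 UMIs in gated cells. Hoxc gave 13924 of them, Hoxa 9852, Hoxb 6477 and Hoxd 4670. No UMI was seen in gated cells of the unsorted libraries for Hoxa11 or Hoxb13, both members of the posterior groups. Sorted fibroblasts gave 2 UMIs of Hoxa11. A mean level of 10 CPM over the 4 unsorted libraries was reached in at least 1 lineage by 15 members, 13 more reached 1 CPM, and 11 stayed below 1 CPM everywhere. The 11 were Hoxa4, Hoxa11, Hoxa13, Hoxb1, Hoxb13, Hoxc11, Hoxc12, Hoxd1, Hoxd11, Hoxd12 and Hoxd13, thus mainly members of the posterior groups. Exons of Hoxa2, Hoxa3, Hoxc5, Hoxc10, Hoxd3 and Hoxd4 share bases with another gene on the same strand, so their values are uncertain. Hoxa3, Hoxa4, Hoxa7, Hoxb2, Hoxb3, Hoxb5, Hoxd3 and Hoxd4 are among the members that overlap antisense genes, and whether counting used strand is not given in the sources used here.

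**Figure D1:**
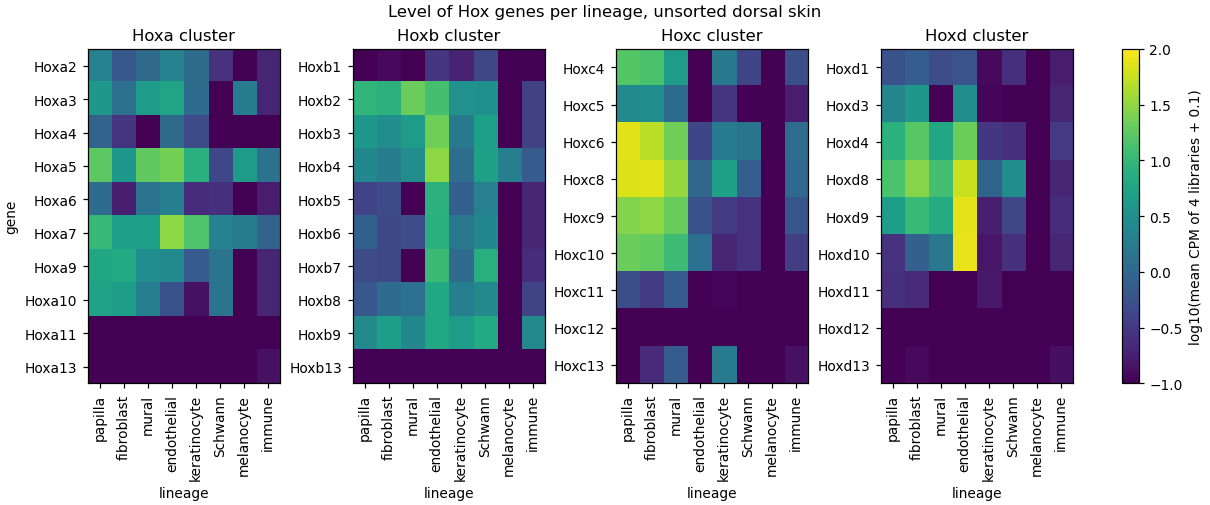
Mean level of the Hox genes reported here (rows, one panel per cluster) in 8 lineages (columns), as log10 of the mean CPM of the 4 unsorted libraries plus 0.1. Hoxc6 to Hoxc10 are bright in papilla, fibroblast and mural cells, and Hoxd4 to Hoxd10 with Hoxb3 and Hoxb4 in endothelial cells. Hoxc6 reached 74.0 CPM in papilla cells and Hoxd10 reached 78.6 CPM in endothelial cells.

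Endothelial, papilla and fibroblast cells carried the most Hox RNA per UMI. Summed over the 39 genes, the level was 361 and 404 CPM in mutant and 451 and 427 CPM in control endothelial cells. Papilla cells had 316 and 324 CPM in mutant and 303 and 286 CPM in control libraries. Fibroblasts had 264 and 279 CPM in mutant and 318 and 303 CPM in control libraries. Mural cells had 164 and 175 CPM in mutant and 256 and 172 CPM in control libraries. Keratinocytes stayed between 51.0 and 57.1 CPM and Schwann cells between 38.9 and 53.1 CPM in the 4 libraries. Immune cells had 9.50 to 12.5 CPM, and melanocytes gave 5 Hox UMIs in all, too few for a code. With so few melanocyte UMIs, the floor of 3 counts over the 4 libraries stood at 6.05 CPM per gene, and no Hox gene lay above it.

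The share of single cells with a Hox UMI gave a similar order of the lineages after every cell was thinned to 2000 UMIs. Of endothelial cells, 48.4% and 48.2% in mutant and 50.4% and 47.2% in control libraries had at least 1. The shares in papilla cells were 43.7% and 43.3% in mutant and 41.5% and 38.4% in control libraries. Fibroblasts gave 39.9% and 38.5% in mutant and 43.4% and 40.3% in control libraries, and keratinocytes 10.6% to 11.6% over the 4. Exact binomial intervals at 95% ran from 32.9% to 44.2% for the lowest papilla share and from 43.0% to 53.8% for mutant endothelial replicate 1, so these lineages were not separated in every library. Immune cells gave 1.77% to 3.03%, the lowest of these lineages. Without thinning, the mean shares were 70.9% in endothelial, 69.0% in papilla, 81.9% in fibroblast, 42.6% in keratinocyte and 4.74% in immune cells, which put fibroblasts first.

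The clusters were used differently by the lineages. In papilla cells Hoxc gave 73.3% and 73.0% of Hox UMIs in mutant and 62.1% and 64.2% in control libraries. In fibroblasts Hoxc gave 64.7% and 64.9% in mutant and 64.8% and 63.1% in control libraries, and in mural cells 45.5% to 56.2%. Endothelial cells took 59.7% and 60.0% of their Hox UMIs from Hoxd in mutant and 54.5% and 54.3% in control libraries, and at most 0.911% from Hoxc. Keratinocytes took most from Hoxa, 46.8% and 44.6% in mutant and 52.2% and 54.0% in control libraries. Schwann cells took 59.6% to 85.3% from Hoxb, on 278 UMIs over the 4 libraries. Without the members that share exons with another gene, Hoxc gave 67.0% in fibroblasts.

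**Figure D2:**
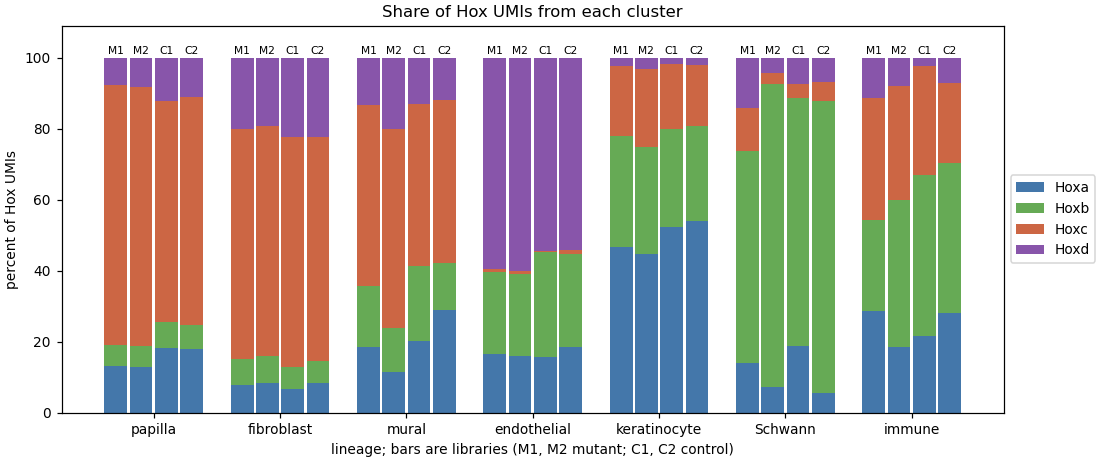
Percent of Hox UMIs from each Hox cluster (stacked colours) in 7 lineages, one bar per unsorted library, mutant libraries (M1, M2) left of control libraries (C1, C2). The Hoxc share is largest in papilla and fibroblast bars, the Hoxd share in endothelial bars (54.3% to 60.0%), and the Hoxb share in Schwann bars.

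Hoxc6 and Hoxc8 had the highest levels of all Hox genes in papilla cells, fibroblasts and mural cells. Hoxc8, a trunk-level member, had 84.2 and 82.9 CPM in mutant papilla cells, against 58.1 and 50.1 CPM in control papilla cells. In fibroblasts it had 63.1 and 63.6 CPM in mutant libraries, against 86.1 and 75.2 CPM in control libraries. Mutant values thus lay above control values in papilla cells and below them in fibroblasts, with no overlap in either.

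Hoxc6, its neighbour on the anterior side, had 81.0 and 86.2 CPM in mutant papilla cells, against 68.2 and 60.6 CPM in control papilla cells. Fibroblasts had 47.9 and 50.9 CPM of Hoxc6 in mutant and 45.9 and 49.4 CPM in control libraries. Every papilla library was above every fibroblast library for Hoxc6. Hoxc9 averaged 27.7 ± 0.893 CPM in papilla cells and 30.6 ± 3.26 CPM in fibroblasts (SD, n = 4 libraries each). Hoxc10 averaged 20.3 ± 3.37 CPM in papilla cells and 18.9 ± 2.89 CPM in fibroblasts, and Hoxc4 averaged 16.2 ± 2.43 and 13.7 ± 0.504 CPM. The papilla and fibroblast ranges of Hoxc9 and of Hoxc10 overlapped.

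Papilla cells were compared with fibroblasts of the same libraries by edgeR's quasi-likelihood test with the library as a block. Genes with a log2 difference of at least 1 in size and an adjusted p below 0.05 (Benjamini-Hochberg) were called. Of the 20 Hox genes tested, 3 rose and 5 fell in papilla cells, while 23.7% of all 13346 genes tested were called (10.7% higher, 12.9% lower). None of the 6 tested Hoxc genes was called, with Hoxc6 at 0.31, Hoxc8 at -0.32 and Hoxc9 at -0.43 on the log2 scale (edgeR adjusted p = 0.0132, 0.131 and 0.00264). The median log2 difference was -0.19 over the Hox genes and 0.01 over all genes tested. A log2 difference here is relative to the bulk of genes, and without the scaling factors the median of all genes shifts by 0.31.

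Hoxa genes of the anterior side rose in papilla cells. Hoxa5, known from lung and axial skeleton patterning, had 13.6 and 15 CPM in mutant and 22.3 and 19.2 CPM in control papilla cells. In fibroblasts Hoxa5 had 4.13 and 2.49 CPM in mutant and 3.99 and 4.93 CPM in control libraries. The papilla and fibroblast libraries did not overlap, and the log2 difference was 1.85 ± 0.181 (SE, n = 4 libraries, edgeR adjusted p = 1.8e-05). Hoxa3, a pharyngeal patterning gene, rose by 1.42 and Hoxa2, a hindbrain and branchial arch gene, by 1.35 on the log2 scale (edgeR adjusted p = 0.00329 and 0.0134). Both rest on low levels, with papilla means of 3.87 and 2.01 CPM, and Hoxa2 lost its call with a stricter gate (0.94, edgeR adjusted p = 0.0618) and with mutant libraries alone (1.03, edgeR adjusted p = 0.0595).

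Hoxd genes and Hoxb9 fell in papilla cells. Hoxd8 had 10.9 and 10.5 CPM in mutant and 20.3 and 14.4 CPM in control papilla cells. In fibroblasts it had 24.5 and 24.8 CPM in mutant and 31.9 and 33.7 CPM in control libraries. Every papilla library lay below every fibroblast library. The papilla level was uneven, at 2.48 to 11 CPM in clusters 8 and 10 and 50.3 to 107 CPM in 29 to 42 papilla-gated cells per library of cluster 6, which was mainly of fibroblasts. Hoxd8 fell by 1.39 ± 0.12 on the log2 scale (SE, n = 4 libraries, edgeR adjusted p = 7.33e-06). All 4 tested Hoxd genes were called lower, Hoxd9 by 1.42, Hoxd4 by 1.29 and Hoxd3 by 1.09 on the log2 scale in size (edgeR adjusted p = 3.93e-05, 2.43e-05 and 0.00452). Hoxb9, a thoracic-level member, was lower by 1.16 on that scale (edgeR adjusted p = 0.00508). Without scaling factors Hoxd8 and Hoxd9 stayed called, while Hoxd4, Hoxd3 and Hoxb9 did not pass the size limit (-0.99, -0.79 and -0.85). Hoxb9 and Hoxd3 also lost the size limit without mutant replicate 1 (-0.99 and -0.92).

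**Figure D3:**
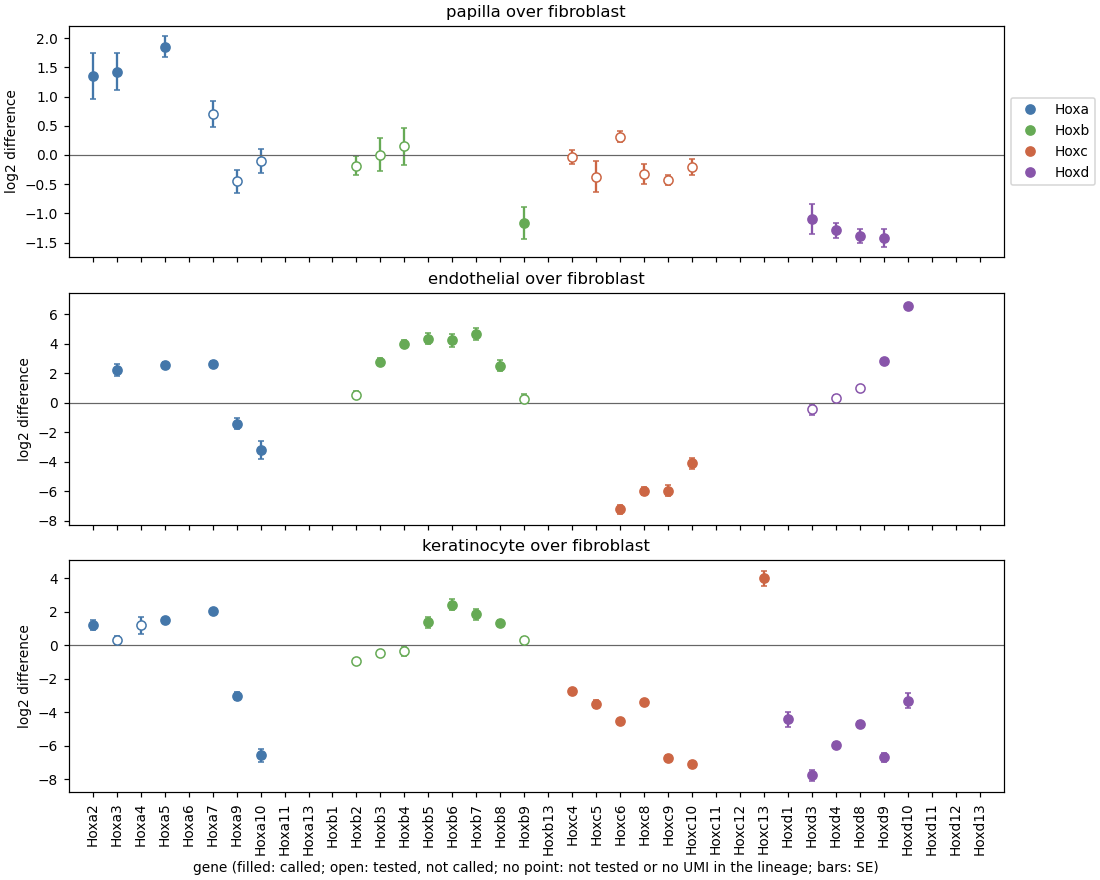
Log2 difference of each tested Hox gene between papilla, endothelial or keratinocyte cells and fibroblasts of the same 4 libraries (points with SE bars; filled where called, open where not; genes not tested or without a UMI in the lineage have no point). Hoxd genes lie below 0 in papilla cells, Hoxb3 to Hoxb8 and Hoxd10 lie above 0 in endothelial cells, Hoxc6 to Hoxc10 lie below 0 in endothelial cells, and Hoxc4 to Hoxc10 lie below 0 in keratinocytes.

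The papilla-gated cells were not uniform in their Hoxc genes. Grouped by unsupervised Leiden clusters, which used no Hox gene, cluster 10 had 25.2 and 24.8 CPM of Hoxc8 in mutant and 30.8 and 12.3 CPM in control libraries. Cluster 8 had 112 and 131 CPM of Hoxc8 in mutant and 56.1 and 61.5 CPM in control libraries. Hoxc6 was closer between these clusters, with 87.8 and 83.2 CPM in mutant and 57.0 and 64.0 CPM in control cells of cluster 10, and 106 and 93.6 CPM in mutant and 67.9 and 54.2 CPM in control cells of cluster 8. Hoxc9 had 7.94 and 10.4 CPM in mutant and 9.24 and 5.45 CPM in control cells of cluster 10, against 42.5 and 47.6 CPM in mutant and 33.4 and 34.9 CPM in control cells of cluster 8. Cluster 10 thus held little Hoxc8 and Hoxc9 beside Hoxc6 in all 4 libraries. Both clusters expressed Crabp1, a papilla marker, at 698 to 904 CPM in cluster 10 and 1766 to 2056 CPM in cluster 8. Crabp1 does not set cluster 10 apart, as fibroblast-gated cells of cluster 6 had 1074 to 1153 CPM. The papilla markers Notum and Prlr had 200 to 474 and 341 to 557 CPM in cluster 10. In those fibroblasts they had 1.74 to 7.29 and 1.74 to 8.06 CPM. These are descriptions of cells grouped after clustering and carry no test.

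Fibroblasts varied in their Hoxd genes between clusters. In fibroblast-gated cells of cluster 6, Hoxd4 had 43.0 and 41.0 CPM in mutant and 48.9 and 35.6 CPM in control libraries. In cluster 3 it had 5.94 and 6.01 CPM in mutant and 6.53 and 7.27 CPM in control libraries. Hoxd8 had 50.3 and 47.0 CPM in mutant and 41.6 and 50.5 CPM in control cells of cluster 6, against 22.3 and 21.1 CPM in mutant and 29.7 and 27.8 CPM in control cells of cluster 3. Hoxc6 followed the same order, at 67.2 to 88.6 CPM in cluster 6 and 25.1 to 32.4 CPM in cluster 3, whereas Hoxc8 reached 60.4 to 89.2 CPM in cluster 6 and 63.4 to 89.6 CPM in cluster 3. Of the smaller clusters, Hoxd8 had 16.1 to 45.1 CPM in cluster 27, 10.6 to 16.5 CPM in clusters 18 and 23 and 0 to 4.24 CPM in cluster 20. Clusters 6 and 3 did not overlap in Hoxd4, Hoxd8 or Hoxc6 and overlapped in Hoxc8. Cluster 6 expressed Crabp1 at 1074 to 1153 CPM and cluster 3 at 20.5 to 31.0 CPM, and Dpt, a dermal matrix gene, at 63.5 to 68.1 CPM in cluster 6 and 705 to 911 CPM in cluster 3.

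In mural cells Hoxc8 averaged 34.4 CPM, followed by Hoxc6 at 22.3 CPM and Hoxb2 at 20.6 CPM. The mural gate also held 7760 to 12971 CPM of 6 dermal sheath markers, of which Acta2 and Tagln are mural markers too, beside 10411 to 17237 CPM of its own list. Of 19 Hox genes tested against fibroblasts, 2 rose and 6 fell, with 27.7% of all genes called (11.2% higher, 16.5% lower). Hoxa5 had 20.1 and 15 CPM in mutant and 18.1 and 20.4 CPM in control mural cells, a log2 difference of 2.33 ± 0.37 to fibroblasts (SE, n = 4 libraries, edgeR adjusted p = 6.9e-07). Hoxb2, a hindbrain gene, rose by 1.28 (edgeR adjusted p = 0.00133), with 16.7 and 15 CPM in mutant and 41.4 and 9.07 CPM in control mural cells against 6.39 to 9.90 CPM in fibroblasts. The values of control replicate 2 lay within the fibroblast range, while the other 3 libraries lay above it. Hoxc4, Hoxc6, Hoxc8, Hoxd3, Hoxd4 and Hoxd8 fell. Hoxd3 had no UMI in mural cells, at least 2.51-fold lower than in fibroblasts with a floor of 3 counts over the 4 libraries. These values rest on 378 Hox UMIs. With mutant libraries alone none of the 6 lower genes passed (Hoxc4 -1.43, Hoxc6 -0.74, Hoxc8 -0.98, Hoxd4 -1.43 and Hoxd8 -0.58), and Hoxa9, Hoxa10 and Hoxb9 were called lower in their place. Hoxb2 lost its call without control replicate 1 (0.92, edgeR adjusted p = 0.0651). Hoxc6, Hoxc8 and Hoxd8 lay at the size limit and lost theirs without control replicate 2 (-0.78, -0.95 and -0.87), Hoxc8 also without mutant replicate 1 (-0.99) and Hoxd8 without control replicate 1 (-0.82).

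Endothelial cells carried a code of Hoxd8, Hoxd9, Hoxd10 and anterior to middle Hoxb genes with nearly no Hoxc. Hoxd10, a posterior member known from limb and lumbar patterning and from studies of vessel quiescence, had 75.9 and 86.1 CPM in mutant and 77.7 and 74.6 CPM in control endothelial cells. In fibroblasts it had 1.17 and 1.01 CPM in mutant and 0.295 and 0.462 CPM in control libraries. The log2 difference was 6.51 ± 0.197 (SE, n = 4 libraries, edgeR adjusted p = 4.28e-15), with no overlap between the lineages. Of 24 Hox genes tested, 11 rose and 8 fell in endothelial cells, while 31.0% of all 12356 genes tested were called (13.2% higher, 17.8% lower). The median log2 difference was 0.77 over the Hox genes and -0.04 over all genes.

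Hoxd9 had 64.8 and 71.8 CPM in mutant and 87.0 and 73.9 CPM in control endothelial cells, against 9.04 to 12.1 CPM in fibroblasts, and rose by 2.81 (SE 0.11, edgeR adjusted p = 2.37e-13). Hoxd8 had 53.6 and 57.6 CPM in mutant and 55.8 and 59.1 CPM in control endothelial cells. Its log2 difference to fibroblasts of 0.98 lay just under the size limit (edgeR adjusted p = 5.06e-07) and passed it without either control library (1.07 and 1.05). Hoxd4 averaged 20.9 ± 1.31 CPM in endothelial cells and 16.7 ± 3.37 CPM in fibroblasts (SD, n = 4 libraries each) and did not pass the test (edgeR adjusted p = 0.0678). Of the 5 Hoxd genes tested, Hoxd9 and Hoxd10 were thus the ones called.

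A row of 6 neighbouring Hoxb genes, Hoxb3 to Hoxb8, rose in endothelial cells. Hoxb4, known for its use in blood stem cell expansion, had 25.3 and 32.1 CPM in mutant and 28.7 and 38.1 CPM in control endothelial cells, against 0.770 to 2.64 CPM in fibroblasts. Its log2 difference was 4.0 (SE 0.24, edgeR adjusted p = 7.53e-11). Hoxb5 rose by 4.34, Hoxb6 by 4.23 and Hoxb7 by 4.66 on the log2 scale, with means of 8.48, 8.02 and 11.1 CPM in endothelial cells and of 0.403, 0.348 and 0.346 CPM in fibroblasts (edgeR adjusted p = 3.37e-08, 2.25e-07 and 2.04e-08). Hoxb3 rose by 2.78 and Hoxb8 by 2.51, whereas Hoxb2 (0.55) and Hoxb9 (0.27) at the ends of this stretch were not called over the whole gate. Both were uneven within the gate. Over all libraries together they had 44.6 and 22.8 CPM in cells with blood endothelial markers, against 3.83 and 0.294 CPM in cells with lymphatic markers. Blood endothelial cells alone were not tested against fibroblasts.

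Hoxa3, Hoxa5 and Hoxa7 rose in endothelial cells by 2.22, 2.58 and 2.65 on the log2 scale. Hoxa7 had 23.8 and 30.1 CPM in mutant and 34.6 and 35.0 CPM in control endothelial cells, the highest of the 8 lineages. Hoxa9 and Hoxa10 fell, by 1.41 and 3.22 on the log2 scale (edgeR adjusted p = 0.00258 and 0.000161), and Hoxa9 did not pass with control libraries alone (-1.32, edgeR adjusted p = 0.0826).

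All 6 tested Hoxc genes fell in endothelial cells. Hoxc6 fell by 7.21, Hoxc8 by 6.0, Hoxc9 by 5.96 and Hoxc10 by 4.09 on the log2 scale. Hoxc4 had no UMI in endothelial cells against 538 in fibroblasts, at least 29.5-fold lower with a floor of 3 counts over the 4 libraries. Hoxc5 had none against 113, at least 6.20-fold lower on the same floor. After thinning to 2000 UMIs, 0% to 0.875% of endothelial cells had a Hoxc UMI, against 27.9% to 32.5% of fibroblasts and 0.458% to 1.16% of immune cells. The endothelial and immune ranges overlapped.

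Within the endothelial gate, cells with blood or lymphatic markers were compared by level, as a description. Sub-gates held 103 blood and 810 lymphatic cells, 211 cells with markers of both and 151 with neither. Hoxd10 had 144 and 203 CPM in mutant and 194 and 128 CPM in control blood endothelial cells, against 56.9 and 53.9 CPM in mutant and 30.5 and 53.2 CPM in control lymphatic cells. Hoxb4 had 60.6 and 66.5 CPM in mutant and 50.3 and 85.7 CPM in control blood endothelial cells, against 14.7 and 21.9 CPM in mutant and 17.7 and 21.3 CPM in control lymphatic cells. Hoxb3 (29.9 to 82.7 CPM in blood, 4.99 to 14.7 CPM in lymphatic cells) and Hoxb2 (23.8 to 71.9 and 2.99 to 4.90 CPM) were ordered alike, with no overlap between the kinds of vessel. Hoxd4 came closest to overlap, with 18.9 to 59.8 CPM in blood and 15.7 to 18.6 CPM in lymphatic cells.

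Hoxd9 had 68.3 to 93.0 CPM in blood and 56.9 to 107.7 CPM in lymphatic cells, and Hoxd8 had 30.3 to 61.9 CPM in blood and 58.8 to 66.5 CPM in lymphatic cells. Their ranges overlapped, as did those of Hoxa5, at 15.2 to 38.1 and 21.9 to 26.5 CPM, and Hoxa7, at 22.7 to 42.8 and 17.6 to 41.8 CPM. With 20 to 33 blood endothelial cells per library, the blood levels of Hoxd10 rest on 27 to 61 UMIs. By cell number the endothelial gate is mainly lymphatic, but its Hox UMIs are not so for every gene. Blood and lymphatic cells gave 180 and 171 UMIs of Hoxd10 and 68 and 64 of Hoxb4. They gave 83 and 257 UMIs of Hoxd9 and 50 and 208 of Hoxd8.

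**Figure D4:**
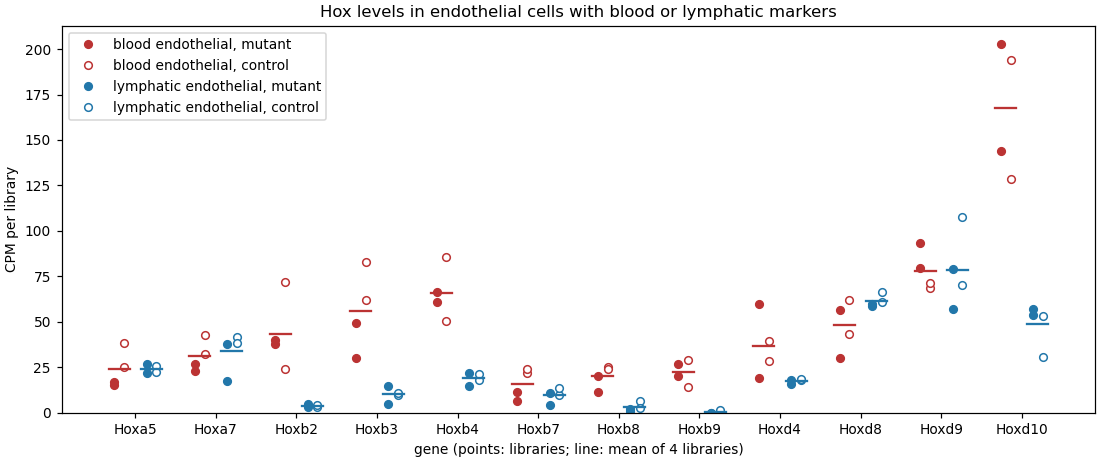
CPM per unsorted library of 12 Hox genes in endothelial cells with blood (red) or lymphatic (blue) markers, mutant libraries (filled) left of control libraries (open), with the mean of the 4 libraries as a line. Hoxb2, Hoxb3, Hoxb4, Hoxb8, Hoxb9, Hoxd4 and Hoxd10 are higher in blood cells in all 4 libraries, Hoxd10 at 128 to 203 CPM against 30.5 to 56.9 CPM, while Hoxa5, Hoxa7, Hoxd8 and Hoxd9 overlap.

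Keratinocytes kept a low code led by Hoxa7. It had 12.3 and 12.9 CPM in mutant and 16.4 and 17.8 CPM in control keratinocytes, against 3.19 to 5.91 CPM in fibroblasts, a log2 difference of 2.04 ± 0.12 (SE, n = 4 libraries, edgeR adjusted p = 3.98e-07). Of 29 Hox genes tested, 8 rose and 14 fell, while 50.9% of all 16097 genes tested were called (22.4% higher, 28.5% lower). Hoxa5, at 7.54 to 8.70 CPM, rose by 1.49, and Hoxb5, Hoxb6, Hoxb7 and Hoxb8 by 1.32 to 2.42 on the log2 scale. Without scaling factors all differences in this comparison fell by 0.42, and 5 Hox genes were still called higher; Hoxa2, Hoxb5 and Hoxb8 then missed the size limit at 0.78, 0.95 and 0.90.

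Hoxc13, the hair shaft regulator, was the single Hoxc gene higher in keratinocytes. It had 1.71 and 1.53 CPM in mutant and 1.66 and 1.40 CPM in control keratinocytes, against 0 to 0.233 CPM in fibroblasts, a log2 difference of 4.0 ± 0.44 (SE, n = 4 libraries, edgeR adjusted p = 2.81e-05). Its 5 fibroblast UMIs, 0 to 3 per library, leave the size of this difference imprecise. All 6 tested Hoxd genes, Hoxc4 to Hoxc10, Hoxa9 and Hoxa10 fell, Hoxc8 by 3.39 to a mean of 5.09 CPM in keratinocytes and Hoxc9 by 6.72 to 0.22 CPM on average. The ratio of Hoxc9 to Hoxc8 UMIs was 0.0255 to 0.0590 in keratinocytes and 0.40 to 0.471 in fibroblasts, and that of Hoxc8 to Hoxc6 was 2.87 to 3.62 in keratinocytes and 1.25 to 1.87 in fibroblasts. The ratios of these neighbours did not overlap between the lineages.

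Schwann cells, the glia of skin nerves, used mainly Hoxb. Hoxb7 had 2.73 and 8.66 CPM in mutant and 14.6 and 4.89 CPM in control Schwann cells, a wide spread on 4 to 22 UMIs, against 0.154 to 0.623 CPM in fibroblasts. It rose by 3.89 ± 0.51 on the log2 scale (SE, n = 4 libraries, edgeR adjusted p = 6.97e-06). Hoxb6 and Hoxb4 also rose, by 2.35 and 1.23, and 15 of the 21 Hox genes tested fell, with 30.8% of all genes called (12.8% higher, 18.0% lower). All 6 tested Hoxc and all 4 tested Hoxd genes fell. Hoxb9 averaged 6.72 ± 1.29 CPM in Schwann cells and 4.73 ± 1.07 CPM in fibroblasts (SD, n = 4 libraries each), which was not a called difference (edgeR adjusted p = 0.505). With mutant libraries alone Hoxb7 was the 1 Hox gene called higher, and Hoxb6 and Hoxb4 missed the threshold (edgeR adjusted p = 0.0512 and 0.202). Hoxb4 also missed it without control replicate 2 (0.88, edgeR adjusted p = 0.0662).

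Immune cells and gated melanocytes had little Hox RNA. In immune cells 17 of 18 tested Hox genes fell and none rose, while 50% of all genes were called (22.4% higher, 27.7% lower). The highest immune member was Hoxb9, at 2.48 ± 1.60 CPM on average (SD, n = 4 libraries) and 71 UMIs in all. It did not pass the test against fibroblasts (log2 difference -0.96, edgeR adjusted p = 0.0515). It was called lower without control replicate 1 (-1.53, edgeR adjusted p = 0.00502), with mutant libraries alone (-2.0, adjusted p = 0.000196), with a stricter gate (-1.03, adjusted p = 0.0436) and with library sums alone (-1.01, adjusted p = 0.0365). With Leiden clusters in place of the gate, the summed Hox level of melanocytes was 190.5 CPM and 8 Hox genes were called higher, so the melanocyte code depends on how the cells were chosen. In melanocytes 10 of 16 tested Hox genes were called lower and none higher, with 24.7% of all genes called (5.73% higher, 18.9% lower). All 10 had no melanocyte UMI, so those folds depend on the fit. With these 10 at their floor the median log2 difference over the Hox genes was -1.90. This median still held the fitted values of Hoxa10, Hoxb9, Hoxc5 and Hoxd3, which were not called (-7.52, -7.57, -6.91 and -7.27). It thus depends on the fit as well.

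The genotypes were compared within each lineage by the same test without a block. No Hox gene was called in papilla cells (18 tested; 3.98% of all 11927 genes called), fibroblasts (19 tested; 1.70%), keratinocytes (24 tested; 2.09%), endothelial cells (12 tested; 0.417%), Schwann cells (1 tested; 0.35%) or mural cells (4 tested; 0.299%). In melanocytes no Hox gene had enough counts to test, where 0.532% of the genes tested were called. The edgeR adjusted p was under 0.05 for 4 Hox genes in papilla cells, 3 in fibroblasts and 1 in keratinocytes, against 16.8%, 12.6% and 22.0% of all genes tested. At an unadjusted p under 0.05 the counts were 6, 4, 2 and 1 in papilla, fibroblast, keratinocyte and endothelial cells and 0 in Schwann and mural cells. DESeq2 likewise called no Hox gene in these 6 lineages.

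In papilla cells Hoxc8 was higher in mutant libraries by 0.66 ± 0.106 on the log2 scale (SE, n = 2 and 2 libraries, edgeR adjusted p = 8.3e-05) and Hoxc6 by 0.41 (edgeR adjusted p = 0.0069). Hoxa7 was lower by 0.79 and Hoxd8 by 0.65 on that scale (edgeR adjusted p = 0.0421 and 0.0471). Hoxa7 had 7.91 and 6.88 CPM in mutant and 10.2 and 15.7 CPM in control papilla cells, and it passed the size limit without control replicate 1 (-1.06). Papilla-gated cells of cluster 6, at 50.3 and 54.1 CPM of Hoxd8 in mutant and 107 and 55.8 CPM in control libraries, made up 4.56% and 4.50% of the gate in mutant and 9.88% and 8.24% in control libraries. They gave 21 and 24 of 65 and 61 Hoxd8 UMIs in mutant and 35 and 16 of 42 and 33 in control papilla cells. Within clusters 8 and 10 the Hoxd8 values of the genotypes overlapped. In fibroblasts Hoxc8, Hoxd8 and Hoxd4 were lower in mutant libraries by 0.32, 0.38 and 0.43 (edgeR adjusted p = 0.00885, 0.0105 and 0.0332). Hoxd4 had 13.9 and 14.2 CPM in mutant and 21.1 and 17.4 CPM in control fibroblasts. The make-up of the fibroblast gate moved with genotype, as Hoxd-rich cluster 6 held 24.1% and 24.7% of it in mutant and 32.2% and 33.0% in control libraries. Cluster 23, with 47.5 and 46.8 CPM of Hoxc8, held 16.9% and 14.2% of mutant fibroblasts. Within cluster 6 the genotypes overlapped for Hoxd4 and Hoxd8, at the values given above, and for Hoxc8. In cluster 3, the largest, Hoxc8 had 63.4 and 64.7 CPM in mutant and 87.5 and 89.6 CPM in control libraries. Hoxd8 and Hoxd4 were there also lower in both mutant libraries, at the values given above. The genotypes overlapped for these genes in clusters 20 and 27. In cluster 18 Hoxc8 and Hoxd8 were lower and Hoxd4 higher in mutant libraries. The part of the make-up of the gate in these differences was not tested. In keratinocytes Hoxa7 was lower by 0.45 (edgeR adjusted p = 0.000228). All these changes were smaller than the size limit of 1. With Hoxb9 in immune cells, 9 Hox differences by genotype had an edgeR adjusted p under 0.05. Of the 9, 7 missed this threshold in DESeq2 and 5 with every gene of at least 1 count. Without clusters of mutant cells 5 of the 7 compared missed it. Leiden clusters lost 2 of the 9 and a stricter gate 1. Other scalings and the replicate as a block lost 0. No direction was reversed in these alternatives.

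Whether a genotype difference varied between papilla cells and fibroblasts was tested by an interaction term, fitted without a library block. Papilla and fibroblast sums of the same library thus counted as separate samples, and none of the alternatives added a block. The genotype difference of Hoxc8 was itself larger in papilla cells than in fibroblasts, by 0.98 ± 0.130 on the log2 scale (SE, interaction term, 4 libraries, edgeR adjusted p = 3.01e-05). It was the single Hox gene of 20 tested with an adjusted p under 0.05 for this term, against 6.96% of all 13346 genes. Over 12 alternatives it ranged from 0.60 to 1.30 with edgeR or DESeq2 adjusted p-values from 2.29e-07 to 0.0142.

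The make-up of the papilla gate moved with genotype, and so did Hoxc8. Cluster 8 held 27.4% and 25.5% of gated papilla cells in mutant and 57.7% and 59.9% in control libraries, and cluster 10 held 30.7% and 29.5% in mutant and 21.0% and 22.2% in control libraries. Cluster 15, with 882 mutant and 4 control cells in all, held 33.1% and 35.8% in mutant and at most 0.568% in control libraries. It had 125 and 118 CPM of Hoxc8 in mutant libraries. Its Crabp1 level there was 249 and 257 CPM, against 1889 and 1801 CPM in mutant cells of cluster 8. Acta2, a mural marker, had 102 and 86.3 CPM, against 28.6 and 24.7 CPM. Corin, a papilla marker, had 57.7 and 63.4 CPM, against 53.3 and 48.5 CPM. The summed level of 6 dermal sheath markers was 175 and 169 CPM in mutant and 82.2 and 75.8 CPM in control papilla cells, and that of 12 fibroblast markers was 1770 and 1692 CPM in mutant and 2206 and 1879 CPM in control. Within cluster 8, Hoxc8 was higher in both mutant libraries, at the values given above, while within cluster 10 the genotypes overlapped. Without cells of clusters 15 and 23, which were nearly all mutant, Hoxc8 in papilla cells had a log2 difference of 0.36 (edgeR adjusted p = 0.0571), and the difference from fibroblasts was 0.60 (edgeR adjusted p = 0.0142). The part of the sheath and fibroblast markers in this result was not tested.

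**Figure D5:**
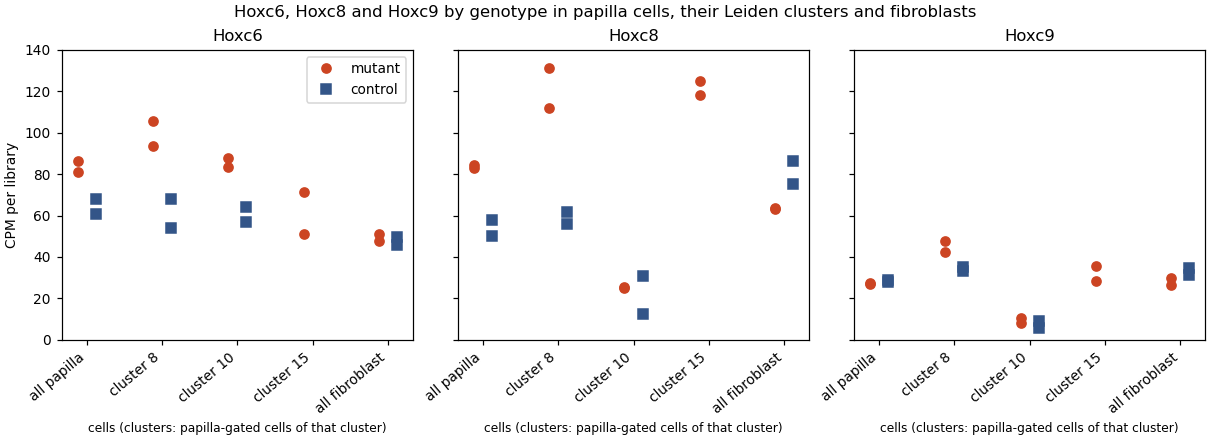
CPM per unsorted library of Hoxc6, Hoxc8 and Hoxc9 in all papilla-gated cells, in those of Leiden clusters 8, 10 and 15, and in all fibroblasts, mutant (circles) left of control (squares). Groups with under 20 cells in a library are not drawn, which leaves no control point for cluster 15; Hoxc8 is at 112 and 131 CPM in mutant and 56.1 and 61.5 CPM in control cells of cluster 8, and at 25.2 and 24.8 CPM in mutant and 30.8 and 12.3 CPM in control cells of cluster 10.

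In immune cells Hoxb9 was called lower in mutant libraries, 1 of 2 Hox genes tested, with 2.97% of all genes called (1.73% lower). It had 1.01 and 1.67 CPM in mutant and 4.68 and 2.54 CPM in control libraries, from 7 and 12 UMIs in mutant and 33 and 19 in control cells. The log2 difference was -1.47 ± 0.421 (SE, n = 2 and 2 libraries, edgeR adjusted p = 0.0195). In immune cells with T cell markers Hoxb9 had 1.05 and 1.42 CPM in mutant and 6.02 and 2.73 CPM in control libraries. The call was lost without control replicate 1 (-0.99, edgeR adjusted p = 0.292), without mutant replicate 1 (-1.16, adjusted p = 0.116), in DESeq2 (adjusted p = 0.198) and with immune Leiden clusters in place of the gate (-0.04, adjusted p = 0.934). Fibroblast markers summed to 159 and 192 CPM in mutant and 86.3 and 98.9 CPM in control immune cells, and T cell markers to 2205 and 2247 CPM in mutant and 2685 and 2668 CPM in control; their part in this result was not tested.

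Genes that work with Hox proteins were followed as fixed lists. TALE proteins are homeodomain partners of Hox proteins on DNA. Of 8 tested of 9 TALE genes, none was called between genotypes in papilla cells, and Pbx3 was the gene called higher in papilla cells than in fibroblasts, by 1.16 on the log2 scale (edgeR adjusted p = 1.33e-05). Meis2 averaged 88.5 CPM in papilla cells and 66.9 CPM in fibroblasts, and Meis1 averaged 61.6 CPM in papilla cells and 26.4 CPM in fibroblasts. Endothelial cells had 1.13 CPM of Meis1 beside 62.0 CPM of Meis2.

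Polycomb proteins keep Hox genes silent and Trithorax proteins keep them active. Among 16 Polycomb genes Cbx2, which binds methylated histone tails, was called higher in papilla cells than in fibroblasts (log2 difference 2.05, edgeR adjusted p = 0.0125), and the other 15 tested were not called. None of 7 Trithorax genes was called. For these lists too, 23.7% of all genes tested were called between papilla cells and fibroblasts. Among retinoic acid genes, which act on anterior Hox genes in the embryo, 2 of 7 tested fell in papilla cells, against 12.9% of all genes. Cyp26b1, which degrades retinoic acid, had 169 CPM in papilla cells and 436 CPM in fibroblasts on average (log2 difference -1.67, edgeR adjusted p = 5.96e-07), and Rxrg, a retinoid receptor, fell by 2.20 (edgeR adjusted p = 0.000519). No gene of the TALE, Polycomb, Trithorax or retinoic acid lists was called between genotypes in a lineage where it was tested. Over all genes 0.299% to 3.98% were called, depending on the lineage. Melanocytes had 1 Trithorax gene tested and none of the other lists. Mural cells had 4 TALE, 8 Polycomb, 2 Trithorax and 2 retinoic acid genes tested.

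Among other positional factors, Msx2, a homeobox gene of skin appendages, rose in papilla cells over fibroblasts by 3.45 on the log2 scale (edgeR adjusted p = 1.28e-07), and Tbx15, a dorsal skin patterning gene, fell by 1.22 (edgeR adjusted p = 1.77e-06). In keratinocytes 5 of 12 tested, Prrx1, Prrx2, Tbx18 and Zic1 among them, were called higher in mutant libraries, against 2.09% of all genes called, and Prrx1 also in immune cells. Prrx1, a mesenchymal gene, had 4.70 and 3.93 CPM in mutant and 2.34 and 1.77 CPM in control keratinocytes, against a mean of 398 CPM in fibroblasts. Fibroblast markers summed to 194 and 196 CPM in mutant and 160 and 168 CPM in control keratinocytes, and their part in this result was not tested.

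The sorted library held cells of another age and another capture chemistry, so its levels were not compared by a test. Its 221 papilla cells gave 256 Hox UMIs, 70.3% of them from Hoxc. Hoxc8 had 107 CPM (exact Poisson interval 80.9 to 138, counting error only), Hoxc6 had 90.01 CPM (66.6 to 119), Hoxc4 had 56.9 CPM (38.7 to 80.8) and Hoxc9 had 49.6 CPM (32.7 to 72.2). The 58 sorted fibroblasts gave 55 Hox UMIs, 52.7% from Hoxc and 23.6% from Hoxd. The 27 sorted endothelial cells gave 45 Hox UMIs, 53.3% from Hoxd and 6.67% from Hoxc, with Hoxd9 at 14 UMIs and Hoxd10 at 6. The sorted endothelial cells were mainly of the blood kind, with 5077 CPM of 5 blood and 1305 CPM of 5 lymphatic markers, whereas the unsorted endothelial gate held 463 to 877 CPM of blood and 17802 to 19527 CPM of lymphatic markers.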

How the data were processed

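The authors deposited unnormalised UMI counts, a matrix of genes by cell barcodes (per the file headers, Cell Ranger output of 10x Genomics 3′ libraries). The submitters' processing notes name Cell Ranger 2.1.1 and 3.1.0, Seurat 3.2.2 and Scanpy 1.6.0 with builds mm10 and GRCm38, and whether counting used strand is not given in the sources used here. Kept unsorted cells had 500 to 8000 detected genes (sorted cells at least 300) and no more than 10% of UMIs from mitochondrial genes. Cells of an unsorted library with a scrublet doublet score above 0.25 were left out (161 and 145 mutant, 176 and 159 control), with no caller on the sorted library. The kept cells held 121619255 and 120423006 UMIs in mutant, 136739889 and 139095844 in control and 1118686 in sorted libraries.

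A cell joined a lineage when it had a UMI of at least 3 of 12 papilla, 5 of 12 fibroblast, 7 of 12 keratinocyte, 4 of 12 endothelial, 4 of 12 Schwann, 3 of 11 melanocyte, 4 of 12 immune or 4 of 10 mural markers. Papilla and fibroblast cells had to differ by at least 2 markers. The minima were set after the marker counts, but no Hox value, had been seen. Leiden clusters came from 2000 variable genes without Hox genes, 40 components, 15 neighbours and resolution 1.0. They also held 3949 kept cells with markers of several lineages and 1863 that passed no gate, which the gated lineages left out. Counts were summed per library and lineage and tested with edgeR 4.0.16 (quasi-likelihood test, TMM scaling, filterByExpr, Benjamini-Hochberg adjustment over all genes tested). Comparisons between lineages had the library as a block, and the genotype tests and the interaction term had none. The fit was tested on simulated data. DESeq2 1.42.0, other scalings, filters, gates, doublet handling, thinning and libraries left out were alternatives. Python 3.11.15, scanpy 1.11.5, leidenalg 0.10.2 and R 4.3.3 were used. Gene positions are from GENCODE vM21.

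Values are given per library for Hox genes called in a comparison or reaching 10 CPM in a lineage. Of the other lists, called members and those with the highest papilla or fibroblast levels are named. Results on a few genes are not reported here. The members and lists were chosen with earlier results of these data known. Intervals and floors cover counting error only.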

Additional observations from a re-analysis of the deposited data

Results flagged for a closer look

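The genotype difference of Hoxc8 differed between papilla cells and fibroblasts by the interaction term of the model over both lineages. That model had no library block. The log2 difference of the 2 effects was 0.98 (SE 0.130, edgeR adjusted p = 3.01e-05). Hoxc8 had 84.2 and 82.9 CPM in mutant and 58.1 and 50.1 CPM in control papilla cells, higher in both mutant libraries. In fibroblasts it had 63.1 and 63.6 CPM in mutant and 86.1 and 75.2 CPM in control libraries, lower in both. Without the cells of the clusters that were nearly all mutant, the term was 0.60 (edgeR adjusted p = 0.0142).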

How the results depend on the processing

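The direction and threshold of the Hoxc8 interaction term were the same in 12 of 12 alternatives, with values from 0.60 to 1.30. Where values below moved, the cause was not tested. Numbers of genes called between genotypes moved with the tool, filter, gate and libraries used. DESeq2 called 255 genes in papilla, 117 in fibroblast, 201 in keratinocyte, 13 in endothelial, 11 in Schwann, 0 in melanocyte, 165 in immune and 6 in mural cells and 437 for the interaction, where edgeR called 475, 220, 323, 37, 32, 11, 355, 16 and 929. With every gene of at least 1 count, edgeR called 95 in fibroblast, 187 in keratinocyte, 0 in endothelial, 84 in Schwann and 8 in mural cells and 617 for the interaction. With Leiden clusters in place of gates it called 789 in papilla, 58 in endothelial, 17 in Schwann, 0 in melanocyte and 89 in mural cells and 2249 for the interaction. A stricter gate gave 0 in melanocytes and 4 in mural cells. Without clusters of mutant cells, an alternative chosen after seeing the data, 97 genes were called in fibroblasts.

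Among Hox genes, Leiden clusters called 1 higher by genotype in papilla cells (Hoxc8, log2 difference 1.00), 1 in fibroblasts (Hoxd10) and 1 in keratinocytes (Hoxc9), and 3 for the interaction. Without clusters of mutant cells, 1 was called lower in papilla cells (Hoxa7) and 2 for the interaction. Hoxb9 in immune cells, the 1 called, was not called by DESeq2 (0 called), and with Leiden clusters Hoxa5 was called lower in its place (log2 difference -1.17). Over fibroblasts, Leiden clusters called 5 Hox genes higher in papilla cells, 8 in melanocytes and 1 in mural cells, and 12 lower in mural cells. Library sums alone as scaling called 2 lower in papilla cells and 5 higher in keratinocytes, and turned Hoxb9 in keratinocytes to -0.0837 (from 0.34, not called). Hoxb2 in melanocytes was 0.227 with Leiden clusters, against a called negative value on 0 UMIs. Mutant libraries alone called 1 higher in Schwann cells, 1 higher and 3 lower in mural cells and 4 lower in melanocytes (1595 genes in all). Control libraries alone called 3 lower in mural cells and 6 lower in melanocytes (1908 genes in all). DESeq2 called 4 higher in mural cells.

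Summed Hox levels with Leiden clusters were 270.6 CPM in papilla, 59.74 in Schwann, 190.5 in melanocyte, 16.77 in immune and 138.2 in mural cells, and 13.26 CPM in immune cells with a stricter gate. The Hoxc share of fibroblasts without genes of shared exons was 66.98% and the Hoxb share of Schwann cells with Leiden clusters was 58.01%. Shares of cells with a Hox UMI at 1000 UMIs were 27.16% in papilla, 24.04% in fibroblast, 6.382% in keratinocyte, 30.46% in endothelial, 3.568% in Schwann, 1.188% in immune and 17.2% in mural cells. Unthinned they were 68.95%, 81.94%, 42.58%, 70.87%, 14.86%, 4.738% and 55.27%, and 4.564% in melanocytes.

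Leaving out each replicate gave 370 to 470 genes called by genotype in papilla, 163 to 225 in fibroblast, 270 to 308 in keratinocyte, 3 to 56 in endothelial, 25 to 78 in Schwann, 0 to 38 in melanocyte, 334 to 368 in immune and 21 to 78 in mural cells, and 413 to 566 for the interaction. The lone sample of an arm is then assumed to vary like the other group. Hox genes called lower by genotype were 0 to 1 in immune and 0 to 1 in papilla cells. Over fibroblasts, 2 to 4 Hox genes were higher in Schwann, 1 to 3 in mural and 7 to 8 in keratinocyte cells, and 3 to 5 were lower in papilla, 4 to 6 in mural and 7 to 8 in melanocyte cells. Same-numbered libraries correlated between -0.065 and 0.054 in their deviations over 8 lineages, so no deviation shared by the bulk of genes was seen. A deviation shared in few genes was not tested. With the replicate as a block, 54 genes were called in mural cells, and no Hox call by genotype changed. Depth limits melanocytes (5 Hox UMIs) most, then Schwann (278), immune (316) and mural cells (378).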

Other observations

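Genes of the Hox clusters that are not Hox genes also varied by lineage. Hotairm1, a long non-coding RNA of the Hoxa cluster, averaged 23.1 CPM in keratinocytes, 34.7 CPM in mural cells, 17.2 CPM in endothelial cells, 14.5 CPM in papilla cells and 7.90 CPM in fibroblasts. Hoxd3os1, antisense to Hoxd3 and Hoxd4, averaged 24.6 CPM in endothelial cells, 14.7 CPM in papilla cells and 20.5 CPM in fibroblasts. Hoxb3os, antisense to Hoxb2 and Hoxb3, averaged 14.7 CPM in mural cells, 9.47 CPM in Schwann cells, 5.25 CPM in papilla cells and 5.0 CPM in fibroblasts. Of the 18 such genes, 5 were tested in papilla cells over fibroblasts and none was called, and 3 of 8 tested were called higher and 3 lower in keratinocytes over fibroblasts, against 22.4% and 28.5% of all genes. Without knowledge of the counting strand, these RNAs and the Hox genes they overlap cannot be told apart.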
